A study of Mus musculus with 4 samples.

Results

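The 10 genes described here encode ligands and receptors of the tumor necrosis factor (TNF) superfamily. They were picked by symbol, without a threshold on any value but with earlier results of these data known. They come from the 16015 genes listed for colonic epithelial cells of mice with dextran sulfate sodium (DSS) colitis. The ligands were *Tnf*, *Ltb*, *Tnfsf9* and *Tnfsf10*, and the receptors were *Tnfrsf1a*, *Tnfrsf1b*, *Ltbr*, *Tnfrsf9*, *Tnfrsf12a* and *Fas*. DSS, a sulfated polysaccharide, damages the lining of the colon when given as a drink. RNA of 4 mice was sequenced, 2 control mice and 2 *Bmal1* cKO mice, to see how loss of the circadian gene *Bmal1* changes expression in the inflamed epithelium. The control mice, labelled WT, were *Bmal1* fl/fl without Cre, and the *Bmal1* cKO mice were *Villin-CreERT2*; *Bmal1* fl/fl, in which tamoxifen activates Cre in intestinal epithelial cells. Tamoxifen was injected for 5 days, and whether the control mice received it is not given in the sources used here. All mice had a C57BL/6 background, were 2 to 4 months old and are described as being of the same litter. They were given 3% DSS to drink over 5 days followed by 2 days of water, and were sampled on day 7. Crypts were scraped from the colon after EDTA, with no sort described, so other cells of the mucosa can be present.

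Ligands of this superfamily are made as trimers on the cell surface, many of them by leukocytes, and some are cut free by proteases. TNF binds TNFR1 (*Tnfrsf1a*), found on most cells, and TNFR2 (*Tnfrsf1b*), and both receptors feed NF-kB, while TNFR1, FAS and the death receptor of TRAIL carry a death domain and can also start apoptosis or necroptosis. In the colon, TNF made during colitis acts on epithelial cells as a survival signal or a death signal, and blocking it is an established treatment of inflammatory bowel disease.

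The values were normalized counts, meaning reads per gene scaled by a factor for the depth of each library. The 4 libraries had 10312791 to 14156639 reads on the listed genes. The targeted gene, listed as *Arntl*, had 358 and 342 normalized counts in the control libraries and 341 and 289 in the *Bmal1* cKO mice (log2 fold change -0.16, SE 0.14, limma adjusted p = 0.389), so each direction below is that of the libraries labelled cKO against those labelled control. Such a count covers every exon of *Arntl* together, so it cannot show whether the floxed part was lost. Leukocyte markers were lower in the cKO libraries for 18 of 26 genes tested and higher for 0 (also 0 at an unadjusted p under 0.05 in limma, and 0 by edgeR and DESeq2). Lower were 5 of 5 pan-leukocyte, 9 of 10 myeloid, 3 of 5 T and NK cell and 1 of 6 B and plasma cell markers. The 29 listed genes summed to 24875 and 29046 normalized counts in the control libraries and 3360.4 and 3541 in the cKO mice. The control mice differed in make-up, with myeloid markers at 10019 and 24108 (2421 and 2115 in the cKO mice). B and plasma cell markers were at 9181 and 264 (182 and 373 in the cKO mice). Of 9 stromal and endothelial markers 8 were lower, with sums of 15786 and 3514 against 537 and 604. The 10 epithelial markers, the labelled cell type, summed to 146468 and 169085 against 134215 and 141739, and 8 of them had a negative log2 fold change. Of the 10, 3 were lower and 1 higher by limma, 4 and 1 by edgeR, and 6 and 1 by DESeq2. Limma called 27.7% of all genes tested lower and 29.0% higher.

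Of the 10 genes, 8 fell in the *Bmal1* cKO mice, 1 rose and 1 did not pass the test, by limma over the 13983 genes whose mean reached 10 normalized counts and an adjusted p under 0.05. Of all genes tested, 27.7% were called lower and 29.0% higher (56.7% in all). Of 33 tested genes of the whole superfamily, these 10 among them, 15 were called lower and 2 higher. The genes that fell were *Tnf*, *Ltb* and *Tnfsf9* among the ligands and every receptor except *Fas*. *Tnfsf10*, which encodes the death ligand TRAIL, rose. The median log2 fold change was -1.99 over the 10 genes and -0.04 over all genes tested. For 8 genes both cKO mice lay below both control mice and for the other 2 both lay above, against 41.7% and 40.3% of all genes. In these bulk samples fewer cells of a type and less RNA per cell cannot be told apart, and the part that leukocyte content has in these falls was not tested. The number called lower was 6 without control mouse 1, 7 without control mouse 2, 5 without cKO mouse 1 and 4 without cKO mouse 2, where 17.0%, 20.4%, 17.1% and 15.8% of all genes were called lower.

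**Figure D1:**
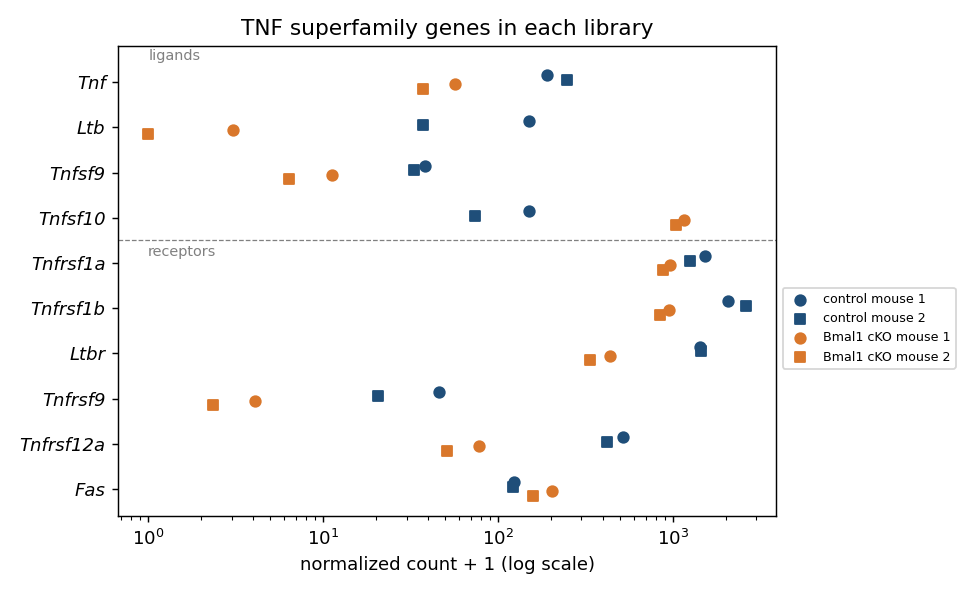
Normalized counts (log axis, plotted as value + 1) of the 10 genes in each library, with 1 point a mouse. The cKO points lie under both control points for 8 genes, and over both for *Tnfsf10* and *Fas*.

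The base composition of a gene also moved with its fold change. Over 13975 genes, Spearman's rho between log2 fold change and GC content was -0.62, as a description across genes that share the same 4 libraries. In the class of highest GC content among 10 equal classes, which holds *Ltb*, *Ltbr* and *Tnfrsf12a*, 75% of the genes were called lower and 0.644% higher. In the second lowest class, with *Tnfsf10* and *Fas*, 6.08% were called lower and 62.9% higher. Correcting every library for GC content and exon length left 16.8% of all genes called lower and 17.1% higher, and among the 10 genes it left *Tnf*, *Ltb*, *Tnfrsf1b*, *Ltbr*, *Tnfrsf9* and *Tnfrsf12a* lower and *Tnfsf10* higher. The median of the 10 genes after it was -1.30. Each corrected value is given beside the first one below.

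**Figure D2:**
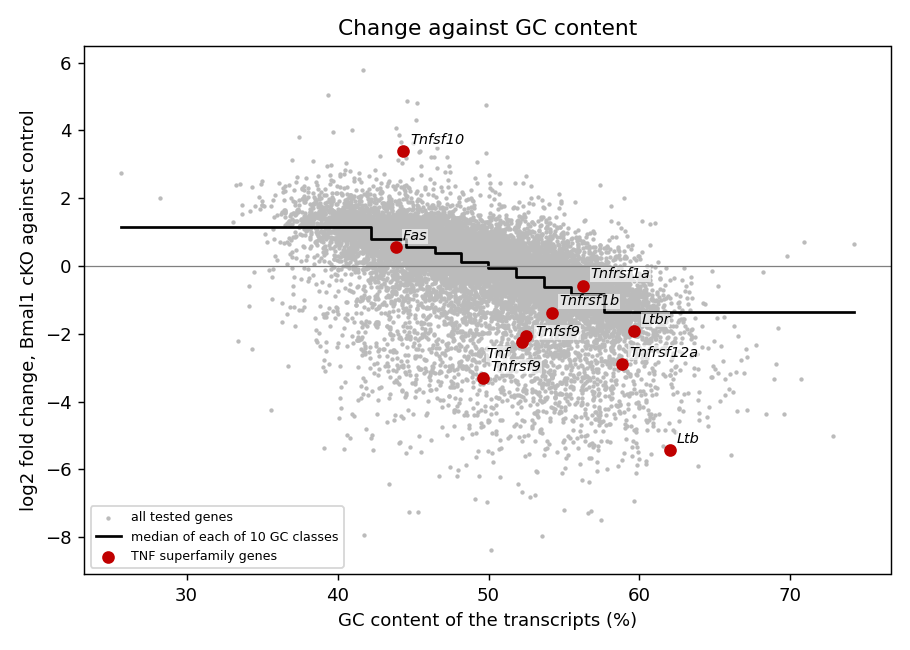
Log2 fold change (cKO against control) of every tested gene against the GC content of its transcripts in percent, with the 10 genes named and the medians of 10 classes of GC content as a line. The medians run from 1.14 in the lowest class to -1.36 in the highest. *Tnfsf10* and *Tnfrsf1a* lie above the median of their class, and the rest of the 10 genes lie below it.

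The promoters of 5 of the genes are shown because the libraries test a transcription factor, BMAL1, whose heterodimer with CLOCK binds the E-box CACGTG, and because NF-kB, which binds sites of the form GGGNNNNNCC, acts after most of these receptors. The sequences are from RefSeq on GRCm38.p6, are written 5′ to 3′ on the strand of the gene, and end at the base before the start site or before the first annotated exon. Capitals mark matches to CACGTG, GGGNNNNNCC (either strand) or TATAAA. The *Tnf* window is chr17:35202008-35202257 (minus strand), the *Ltb* window chr17:35194257-35194438 (plus), the *Tnfsf10* window chr3:27316827-27317027 (plus), the *Ltbr* window chr6:125313886-125314135 (minus) and the *Fas* window chr19:34290409-34290658 (plus).
Tnf: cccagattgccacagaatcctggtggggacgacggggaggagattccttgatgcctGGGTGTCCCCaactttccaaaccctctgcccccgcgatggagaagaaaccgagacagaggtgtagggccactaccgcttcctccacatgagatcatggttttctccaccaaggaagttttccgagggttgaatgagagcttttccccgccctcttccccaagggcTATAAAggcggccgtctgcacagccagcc
Ltb: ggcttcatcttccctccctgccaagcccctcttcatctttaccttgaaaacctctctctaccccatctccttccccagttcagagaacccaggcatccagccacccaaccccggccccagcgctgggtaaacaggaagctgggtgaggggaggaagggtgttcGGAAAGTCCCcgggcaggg
Tnfsf10: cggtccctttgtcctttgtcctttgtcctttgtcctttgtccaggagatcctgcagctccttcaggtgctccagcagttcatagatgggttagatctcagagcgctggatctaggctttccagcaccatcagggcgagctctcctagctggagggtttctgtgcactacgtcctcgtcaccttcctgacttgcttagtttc
Ltbr: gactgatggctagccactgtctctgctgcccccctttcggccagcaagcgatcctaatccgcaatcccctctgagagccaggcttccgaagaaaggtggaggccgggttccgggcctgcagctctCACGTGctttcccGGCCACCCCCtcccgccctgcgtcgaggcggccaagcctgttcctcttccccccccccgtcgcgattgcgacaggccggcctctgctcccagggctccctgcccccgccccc
Fas: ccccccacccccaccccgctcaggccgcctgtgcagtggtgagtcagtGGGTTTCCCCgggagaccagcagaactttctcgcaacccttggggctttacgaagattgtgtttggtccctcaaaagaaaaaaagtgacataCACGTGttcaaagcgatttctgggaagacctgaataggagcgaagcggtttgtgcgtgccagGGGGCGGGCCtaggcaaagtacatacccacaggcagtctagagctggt
The *Tnf* promoter held GGGNNNNNCC 194 to 185 bases before the start site, and TATAAA at 29 to 24. The first match fits on both strands, since it begins with GGG and ends with CCC. The *Ltb* stretch held 1 GGGNNNNNCC at 87 to 78, and 4 overlapping matches lie nearer the start site, outside the letters shown. *Ltbr* held CACGTG at 125 to 120 and GGGNNNNNCC at 112 to 103. *Fas* held CACGTG at 110 to 105 and GGGNNNNNCC at 202 to 193 and 48 to 39. The *Tnfsf10* stretch held none of these. No other gene among the 10 held CACGTG in its window, where one was given, and *Ltbr* and *Fas* had fold changes of -1.91 and 0.55 on the log2 scale, and of -0.62 and -0.12 after the correction, with *Fas* not called in either case. Over 32851 promoter windows of 250 bases, 45.8% held GGGNNNNNCC, 6.02% CACGTG and 12.4% TATAAA on either strand. A match is a string of letters and not a measured binding site.

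*Tnf* encodes TNF, the founding cytokine of the family, made above all by macrophages and T cells. It lies on chromosome 17 (35199381 to 35202007, minus strand) between *Lta* and *Ltb*, 3060 bases from *Ltb*. It had 189 and 246 normalized counts in the control libraries and 55.5 and 36.5 in the cKO mice. Both control mice were well above both cKO mice. *Tnf* fell 4.72-fold (217 ± 39.9 against 46.0 ± 13.5, SD, n = 2), with a log2 fold change of -2.23 (SE 0.30, limma adjusted p = 0.00257). After the correction it was -1.95 (adjusted p = 0.0107). Of the genes tested, 9.35% had a lower uncorrected fold change than *Tnf*, and of its GC class 10.5%.

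*Ltb* encodes lymphotoxin beta, which anchors lymphotoxin alpha to the membrane of lymphocytes and forms the ligand of the lymphotoxin beta receptor. It lies beside *Tnf* on chromosome 17 (35194439 to 35196320, plus strand). *Ltb* had 149.5 and 36.4 normalized counts in the control libraries and 2.06 and 0 in the cKO mice, which were 177 and 43 reads against 2 and 0. The control mice differed widely from each other, and both cKO mice were near the limit of detection. With 2 reads in the cKO group, the ratio of control to cKO was 79.7 (exact 95% interval 21.8 to 662, counting error only). The log2 fold change was -5.42 (SE 1.0005, limma adjusted p = 0.00717), and -3.67 after the correction (adjusted p = 0.0404). Without cKO mouse 2 it was -4.62 and did not pass the test (adjusted p = 0.0544), and it was -4.42 without control mouse 1 and -6.43 without control mouse 2, both past the threshold. T and NK cell markers summed to 341 and 93.2 normalized counts in the control libraries and 27.8 and 51.4 in the cKO mice, and B and plasma cell markers to 9181 and 264 against 182 and 373. Control mouse 1, the higher in both lists, was also the higher for *Ltb*, and the part of lymphocyte content in this fall was not tested.

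*Tnfsf9* encodes 4-1BB ligand, a costimulator on antigen-presenting cells whose receptor is *Tnfrsf9* (4-1BB, CD137), an activation marker of T cells. *Tnfsf9* (chromosome 17, 57105325 to 57107757, plus strand) had 37.2 and 32.2 normalized counts in the control libraries and 10.3 and 5.41 in the cKO mice. Its log2 fold change was -2.07 (SE 0.57, limma adjusted p = 0.0272). Both cKO mice were below both control mice, but the call was lost after the correction (-1.72, adjusted p = 0.0714) and when any 1 mouse was left out (adjusted p from 0.0560 to 0.104). The gene shares 192 of its 1290 exonic bases with the antisense transcript *Gm11110*. Reads in the shared stretch cannot be assigned to either gene because the strand setting of the counts is not given.

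*Tnfsf10* encodes TRAIL, which starts apoptosis through a death receptor and is a known target of interferon. It lies on chromosome 3 (27317028 to 27342427, plus strand). *Tnfsf10* had 149 and 72.8 normalized counts in the control libraries and 1159 and 1048 in the cKO mice. The cKO mice lay close together and far above both control mice. The rise was 9.96-fold (log2 fold change 3.39, SE 0.34, limma adjusted p = 0.00102), and 2.66 on the log2 scale after the correction (adjusted p = 0.00634). Of the genes tested, 99.9% had a lower uncorrected fold change, and of its GC class 99.7%. Its call and direction held without each mouse (2.88 to 3.90).

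Among the receptors, the TNF receptors and *Ltbr* were the most abundant in both groups. *Tnfrsf1a*, which encodes the death domain receptor TNFR1 (chromosome 6, 125349362 to 125362484, plus strand), had 1522 and 1249 normalized counts in the control libraries and 965 and 883 in the cKO mice. The groups did not overlap, with a small difference (log2 fold change -0.58, SE 0.13, limma adjusted p = 0.0135). After the correction the sign turned, to 0.21 (adjusted p = 0.246), and a least squares form of the correction called it higher (0.50, adjusted p = 0.0220). Of its GC class 64.1% of the genes had a lower uncorrected fold change. Its call was also lost without control mouse 1 (adjusted p = 0.0627), cKO mouse 1 (0.0632) and cKO mouse 2 (0.0969).

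*Tnfrsf1b* (chromosome 4, 145213463 to 145246870, minus strand) encodes TNFR2, which has no death domain and binds membrane TNF best. It had 2064 and 2631 normalized counts in the control libraries and 953.5 and 846 in the cKO mice. Both cKO mice were far below the lower control mouse. The fall was 2.61-fold (log2 fold change -1.37, SE 0.15, limma adjusted p = 0.00122) and the corrected value -0.90 (adjusted p = 0.00892). Per kilobase of exon, the ratio of *Tnfrsf1b* to *Tnfrsf1a* was 0.920 and 1.43 in the control libraries and 0.671 and 0.651 in the cKO mice.

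*Ltbr* encodes the lymphotoxin beta receptor of epithelial and stromal cells, which feeds the alternative NF-kB route. It lies 35476 bases from *Tnfrsf1a* on chromosome 6 (125306571 to 125313885, minus strand). *Ltbr* had 1421 and 1455 normalized counts in the control libraries and 434 and 334 in the cKO mice. The control mice were close together and both cKO mice far below them, a difference of 3.75-fold (log2 fold change -1.91, SE 0.15, limma adjusted p = 6.12e-04). *Ltbr* has a GC content of 59.6%, and after the correction the value was -0.62 (adjusted p = 0.0183), but a least squares form of the correction gave -0.37 and ended the call (adjusted p = 0.105). Of its GC class 29.8% had a lower uncorrected fold change. The ratio of *Ltbr* to *Tnfrsf1a* per kilobase was 1.03 and 1.28 in the control libraries and 0.495 and 0.416 in the cKO mice.

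*Tnfrsf12a* encodes Fn14, the receptor of TWEAK, a gene induced in injured epithelium. It lies on chromosome 17 (23675445 to 23677468, minus strand). *Tnfrsf12a* had 518 and 418 normalized counts in the control libraries and 77.1 and 50.01 in the cKO mice. Both cKO mice were far below both control mice, and the fall was 7.36-fold (log2 fold change -2.89, SE 0.27, limma adjusted p = 8.64e-04). After the correction it was -1.70 (adjusted p = 0.00895). Before it, 14.7% of the genes of its GC class had a lower fold change. The ratio of *Tnfrsf12a* to *Tnfrsf1a* per kilobase was 0.456 and 0.449 in the control libraries and 0.107 and 0.0760 in the cKO mice.

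*Tnfrsf9* was the rarest of the receptors. It lies on chromosome 4 (150914562 to 150946102, plus strand), where *Camta1* overlaps it in introns only. *Tnfrsf9* had 44.8 and 19.5 normalized counts in the control libraries and 3.09 and 1.35 in the cKO mice, the latter 3 reads and 1 read. Both cKO mice were at or under 3 reads, and the ratio of control to cKO was 13.8 (exact 95% interval 5.16 to 51.8, counting error only). Its log2 fold change was -3.30 (SE 0.80, limma adjusted p = 0.0178) and -3.41 after the correction (adjusted p = 0.0285). Without cKO mouse 1 or cKO mouse 2 it did not pass the test (adjusted p = 0.0571 and 0.0848).

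*Fas* (chromosome 19, 34290666 to 34327772, plus strand) encodes the death receptor of FAS ligand. It had 122.5 and 121 normalized counts in the control libraries and 203 and 158 in the cKO mice. Both cKO mice were above both control mice, but the difference did not pass the test (log2 fold change 0.55, SE 0.21, limma adjusted p = 0.0690, unadjusted p = 0.0420). After the correction the value was -0.12 (adjusted p = 0.684). Before it, 35.4% of the genes in its GC class had a lower fold change.

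**Figure D3:**
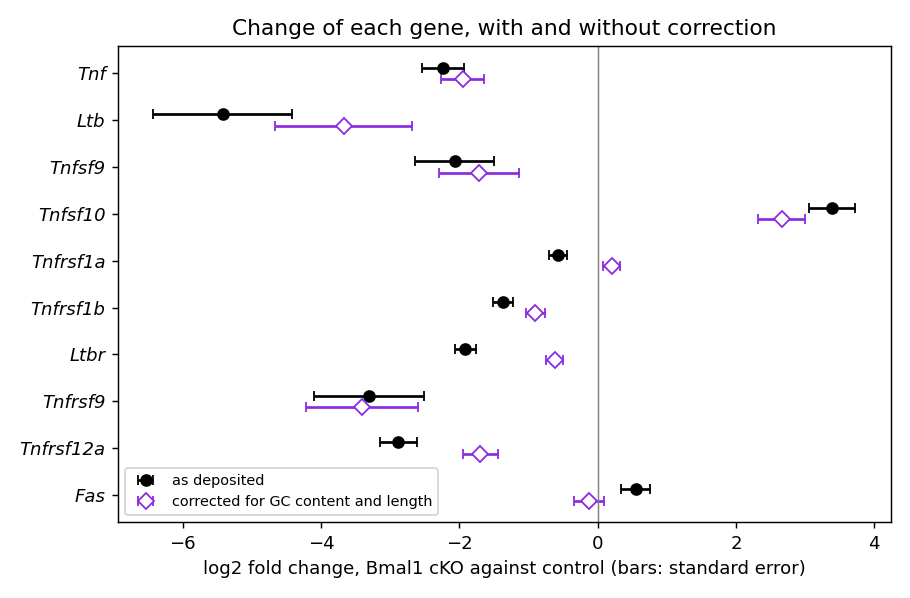
Log2 fold change (cKO against control) of the 10 genes with the SE as a bar, with and without the GC content and exon length correction. *Tnfrsf1a* runs from -0.58 to 0.21 and *Fas* from 0.55 to -0.12, while *Tnfsf10* stays above 2 and *Tnf* below -1.

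Compared per kilobase of exon, the control mice had most *Tnfrsf1b* (615 ± 105 normalized counts per kilobase, SD, n = 2), then *Ltbr* (611 ± 10.3) and *Tnfrsf1a* (535 ± 74.5). *Tnfrsf1b* overlapped both others, while *Ltbr* was above *Tnfrsf1a* in each control mouse (604 against 588 in mouse 1 and 618 against 482 in mouse 2). *Tnfrsf12a* (242 ± 36.4) and *Tnf* (133 ± 24.3) came next, then *Ltb* (61.3 ± 52.8) and *Fas* (59.1 ± 0.471), which did not differ beyond the spread of *Ltb*. *Tnfsf9* (26.9 ± 2.73), *Tnfsf10* (21.03 ± 10.2) and *Tnfrsf9* (11.8 ± 6.57) were lowest by mean, and each overlapped its neighbour. In control mouse 2 *Ltb* (24.03) lay below *Tnfsf9* (24.95). In the cKO mice *Tnfrsf1a* was first (357 ± 22.4), then *Tnfrsf1b* (236 ± 19.9), *Tnfsf10* (209.5 ± 14.996) and *Ltbr* (163 ± 30.1). *Tnfsf10* lay below *Tnfrsf1b* and above *Ltbr* in both mice, by little more than the SDs. *Fas* (87.5 ± 15.3) came before *Tnfrsf12a* (32.9 ± 9.93) and *Tnf* (28.1 ± 8.22), which overlapped, and *Tnfsf9* (6.08 ± 2.67), *Tnfrsf9* (0.815 ± 0.450) and *Ltb* (0.678 ± 0.960) were last, the last pair overlapping. *Tnfsf10* moved from position 9 of 10 to position 3.

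Lymphotoxin alpha, LIGHT, FAS ligand, TWEAK and the death receptor of TRAIL bind products of the 10 genes, and 3 of their genes were rare while the other 2 did not pass the test by limma, edgeR or DESeq2. *Lta*, the partner of lymphotoxin beta and 1157 bases from *Tnf*, had 24.5 and 8.47 normalized counts in the control libraries and 0 and 0 in the cKO mice. Against a floor of 3 reads over both cKO libraries, and with the control mean taken as exact, *Lta* was at least 9.41-fold lower. *Tnfsf14* (LIGHT, a second ligand of the lymphotoxin beta receptor) had 13.5 and 14.4 against 0 and 0, at least 7.97-fold lower by the same measure. *Fasl* had 8.45 and 3.39 against 1.03 and 1.35. The mean of these 3 genes was under 10, so they were left out of the limma fit above. With no filter, limma called *Lta* (adjusted p = 0.0134) and *Tnfsf14* (0.00875) lower but not *Fasl* (0.166), and DESeq2 on the recovered reads also called *Lta* (0.0107) and *Tnfsf14* (0.0149) and gave *Fasl* no adjusted p. *Tnfsf12* (TWEAK, ligand of Fn14) had 92.1 and 30.5 in the control libraries and 40.1 and 40.6 in the cKO mice (log2 fold change -0.39, limma adjusted p = 0.579), with both cKO mice inside the control range. *Tnfrsf10b*, the death receptor of TRAIL, had 373 and 254 against 317 and 343, also inside that range (0.10, limma adjusted p = 0.704).

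Among 18 other receptors of the superfamily that were tested, 7 fell and 1 rose, with a median log2 fold change of -1.23, where 27.7% of all genes were lower and 29.0% higher. After the correction 5 were lower and 3 higher, with a median of -1.60, where 16.8% and 17.1% of all genes were called. *Tnfrsf23*, a mouse decoy receptor of TRAIL, had 221 and 555 normalized counts in the control libraries and 83.3 and 46.0 in the cKO mice (log2 fold change -2.48, limma adjusted p = 0.0103). *Tnfrsf11b* (osteoprotegerin, a secreted decoy for RANKL that also binds TRAIL) had 179 and 349 against 132 and 67.6 (-1.40, adjusted p = 0.0428, but 0.0529 by edgeR), and *Tnfrsf8* (CD30) 358 and 424 against 111 and 51.4 (-2.35, adjusted p = 0.00455). For all 3, both cKO mice were below both control mice and the corrected values also passed the test by limma. *Tnfrsf11a* (RANK), the gene that rose, had 1171 and 1354 against 2421 and 2418 (0.94, adjusted p = 0.00142). The other 4 that fell, named here after their values were seen, were *Tnfrsf4*, *Tnfrsf13b*, *Tnfrsf26* and *Relt*. After the correction *Tnfrsf26* passed the test (-3.42, adjusted p = 0.0130), while *Tnfrsf4* (-2.28, adjusted p = 0.0704), *Tnfrsf13b* (-1.98, 0.108) and *Relt* (-1.89, 0.180) did not. *Eda2r*, also named after its values were seen, was called lower only after it (-1.10, adjusted p = 0.0179, against -0.17 and 0.526 before it). *Tnfrsf14* (1.30, adjusted p = 0.0176) and *Tnfrsf18* (1.57, 0.0390), likewise named, were called higher only after it. Of the other 14 ligands 5 passed the filter, of which 0 were called by limma (0 at an unadjusted p under 0.05) and 0 by edgeR, and *Tnfsf13b* alone was called after the correction (-1.22, adjusted p = 0.0453). DESeq2, run on all 9 listed ligands, called 3 lower, namely *Lta*, *Tnfsf14* and *Tnfsf11*. *Tnfsf13b* and *Tnfsf11* are named after their values were seen.

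Of 29 genes for proteins that assemble on these receptors, 7 were lower and 9 higher with a median of -0.16, shares near those of all genes (27.7% and 29.0%). After the correction 1 was lower and 5 higher, with a median of 0.01, where 16.8% of all genes were lower and 17.1% higher. The 5, named after their values were seen, were *Traf6* and *Map3k5*, which were also higher before it, *Tab1*, *Spata2* and *Tradd*. *Tradd*, the adaptor of TNFR1, turned from lower (-0.51, limma adjusted p = 0.0425) to higher (0.75, adjusted p = 0.0185). *Traf1*, an adaptor of TNFR2 and 4-1BB and a target of NF-kB, fell furthest, with 133 and 195 normalized counts in the control libraries and 15.4 and 9.46 in the cKO mice (log2 fold change -3.63, limma adjusted p = 0.00147, corrected -3.30). The kinase *Map3k14* (NIK) of the alternative NF-kB route (-1.47, corrected -0.54) and the A20 partner *Tnip1* (-1.48, corrected -0.48) also fell, but not after the correction. The ubiquitin ligases *Xiap* (1.43, corrected 0.11) and *Birc2* (1.24, corrected 0.45) and the deubiquitinase *Cyld* (1.06, corrected 0.13) rose, and their corrected values did not pass the test either.

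Of the 6 genes for proteases that cut TNF family ligands or the stubs they leave, and for partners of ADAM17, 3 fell and 3 rose, where 27.7% of all genes were lower and 29.0% higher. After the correction 0 were lower and 2 higher, where 16.8% and 17.1% were. *Adam17*, the main TNF sheddase, had 752 and 795 normalized counts in the control libraries and 1466 and 1360 in the cKO mice (log2 fold change 0.87, limma adjusted p = 0.00142, corrected 0.23 and not called). Its partners *Rhbdf1* (-1.81) and *Rhbdf2* (-1.34), which bring ADAM17 to the surface, fell, with corrected values of -0.56 and -0.11 that did not pass. *Adam10* (1.52, corrected 0.79) and the protease *Sppl2a* (1.96, corrected 0.84) rose with and without the correction. *Sppl2b* was called lower (-0.85), with a corrected value of 0.44 that did not pass the test.

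Of the 11 NF-kB subunits, inhibitors and kinases, 6 fell and 2 rose, with a median of -1.44, where 27.7% of all genes were lower and 29.0% higher. After the correction 5 fell and 1 rose (16.8% and 17.1% of all genes), and the median was -0.25. Named after their values were seen, *Relb* (-0.25, limma adjusted p = 0.176) and *Nfkbib* (-0.23, 0.315) were then no longer called, and *Rel* was called lower only then (-1.02, 0.0333, against -0.07 and 0.836). *Nfkb2*, the p100 precursor of the alternative route that *Ltbr* feeds, had 1076 and 1069 normalized counts in the control libraries and 237 and 189 in the cKO mice (log2 fold change -2.34, limma adjusted p = 5.33e-04, corrected -1.13). *Nfkbie*, an inhibitor that NF-kB induces, had 188 and 223 against 32.9 and 12.2 (-3.28, adjusted p = 0.00369, corrected -2.59), and the subunit *Rela* 994 and 1030.0 against 285 and 276 (-1.85, adjusted p = 5.33e-04, corrected -0.70). The kinase subunits *Ikbkg* (1.08, corrected 0.62) and *Chuk* (1.03, corrected 0.15) rose, *Chuk* not after the correction.

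**Figure D4:**
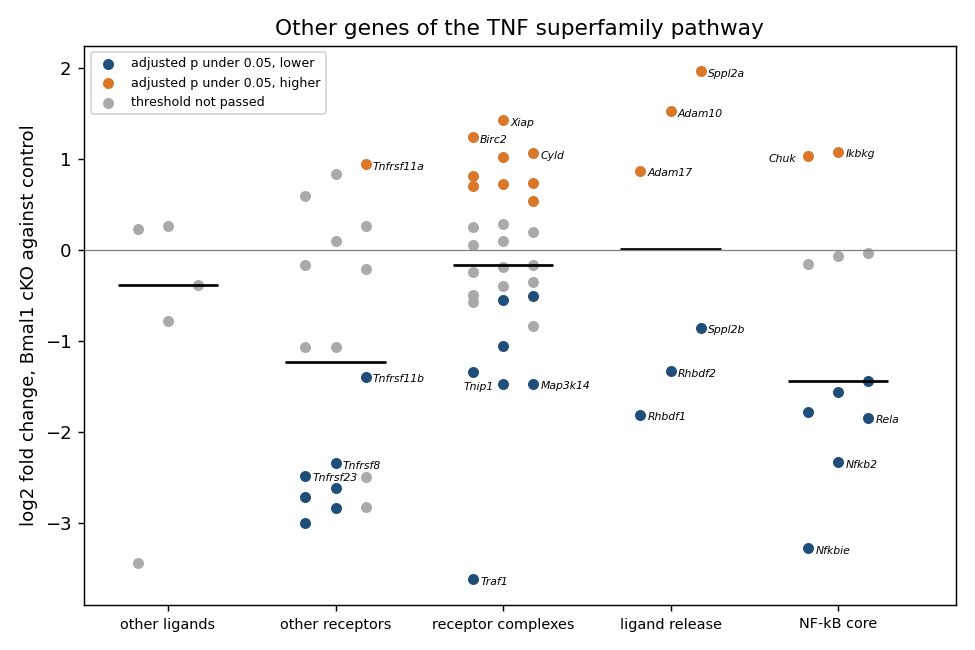
Log2 fold change (cKO against control) before the correction of the tested genes in 5 lists, with a bar at each median and named genes labelled. Medians run from -1.44 for the NF-kB core (-0.25 after the correction) to 0.01 for ligand release (0.34 after it).

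The cell markers behind these comparisons were led by leukocyte and stromal genes. *Fcgr3*, an Fc receptor of myeloid cells, had 384 and 340 normalized counts in the control libraries and 18.5 and 18.9 in the cKO mice (log2 fold change -4.20, limma adjusted p = 5.33e-04). The neutrophil alarmins *S100a8* (-3.75) and *S100a9* (-5.01), the pan-leukocyte genes *Coro1a* (-3.88), *Laptm5* (-3.71) and *Lcp1* (-2.53), and the B cell gene *Cd79a* (-4.51) also fell. The corrected value of *Cd79a* was -3.86 and narrowly missed the threshold (adjusted p = 0.0566). *Cd2* of T cells, named after its values were seen, was at 0 in both cKO libraries. The stromal *Col1a1* (-4.69) and *Col3a1* (-3.94) and the endothelial *Kdr* (-4.39) fell. Of the 10 epithelial genes *Cdx2* (-1.47), *Krt18* (-1.39) and *Lgals4* (-0.90) fell and *Krt20*, of mature surface cells, rose (0.68). Of all genes 27.7% were lower and 29.0% higher. After the correction 1 of the 10 was lower and 5 higher, where 16.8% and 17.1% of all genes were. The part of these cells in the values of the 10 genes was not tested.

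**Figure D5:**
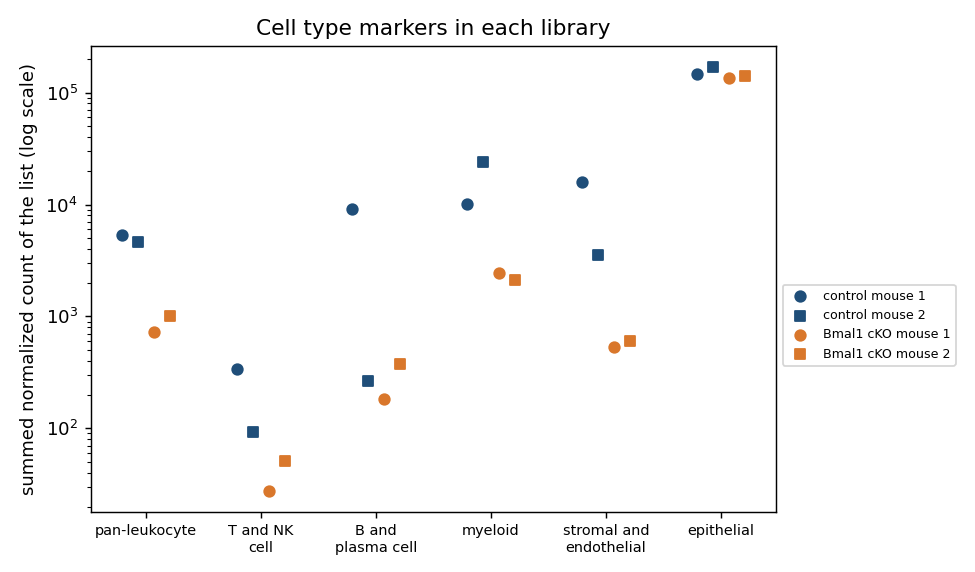
Summed normalized counts (log axis) of each list of cell markers in each library, 1 point a mouse. The cKO sums lie below both control sums for every list except B and plasma cell markers, which overlap between the groups.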

How the data were processed

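RNA of colonic epithelial cells from 2 control and 2 *Bmal1* cKO mice was sequenced. Alignment by the authors was to GRCm38 with STAR, and normalization was with DESeq2, and the counter and annotation are not given in the sources used here. The labels and the methods name different library kits. The deposited library values are a signal, made by the authors from gene counts by a size factor per library. The log2 fold changes with their errors, the score (test statistic) and the p-values that the authors also deposited came from their own DESeq2 comparison and were not used.

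Values were taken to log2(value + 1), which understates changes of rare genes, and 13983 genes with means reaching 10 were tested with limma 3.58.1 (mean-variance trend, two-sided, Benjamini-Hochberg over all genes, threshold 0.05). With 2 mice a group an exact permutation test cannot go below p = 0.333, so none was run. Whole reads were recovered within 0.02 reads for 100% of values and tested with edgeR 4.0.16 and DESeq2 1.42.0 as alternatives, which called 3812 and 3861 genes lower and 3861 and 3743 higher. GC content and exon length came from GENCODE M21 (16003 of 16015 genes matched), with a robust loess of span 0.3 in each library. The 2 libraries of a group differed beyond sampling noise (chi-square per gene 46.2 in control, 11.1 in cKO). The steps were tested on simulated data. Other alternatives were pseudocounts of 0.5 and 5, other filters and scalings, a replicate block and leaving out each mouse.

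The members and lists were chosen with earlier results of these data known. The text names all 10 genes, the genes that bind them, and from each other list the 3 with the largest fold change past the threshold in each direction, with a mean of at least 50.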

Additional observations from a re-analysis of the deposited data

How the results depend on the processing

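*Tnf*, *Tnfsf10*, *Tnfrsf1b* and *Tnfrsf12a* kept their direction and side of the threshold in all 16 alternatives. Of the 10 genes, all kept both under other pseudocounts, no filter, both scalings, edgeR and DESeq2. With a minimum mean of 50, 5 genes were called lower because 3 were then not tested. Scaling by library totals moved the median of all genes from -0.04 to -0.26, with 4885 genes lower and 3091 higher in place of 3871 and 4059, and 11 receptor-complex genes lower.

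With the GC content and length correction 2346 of all genes were lower and 2388 higher. *Tnfsf9* was -1.72 (adjusted p = 0.0714), *Tnfrsf1a* 0.21 (0.246) and *Fas* -0.12 (0.684). Calls became 1 lower for other ligands, 3 higher for other receptors, 1 lower and 5 higher for receptor complexes, 0 lower for ligand release (limma) and 1 higher for the NF-kB core. A least squares loess, added after the data were seen, left the median of all genes at 0.26, with 1522 of all genes lower (10.9%) and 3997 higher (28.6%), and 5 of the 10 lower and 2 higher. It gave -1.37 for *Tnfsf9* (0.109), 0.50 for *Tnfrsf1a* (0.0220) and -0.37 for *Ltbr* (0.105).

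Single mice can be matched between the groups by replicate number only, and the correlation of their deviations was -0.09. The replicate block called 3789 genes lower and 3899 higher and changed no call among the 10 genes. With the replicate block and the correction, 1829 genes were lower and 1959 higher, *Tnfsf9* was -1.72 (0.105), *Tnfrsf1a* 0.21 (0.207) and *Fas* -0.12 (0.683).

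Leaving out 1 mouse, with the lone mouse of its group assumed to vary like the others, gave 2205 to 2852 genes lower and 2654 to 3154 higher, and 4 to 7 of the 10 lower. *Ltb* ranged from -6.43 to -4.42, *Tnfsf9* from -2.47 to -1.66, *Tnfrsf1a* from -0.72 to -0.44 and *Tnfrsf9* from -3.88 to -2.72. The cause of these shifts was not tested. Depth limits *Ltb* and *Tnfrsf9*, with 2 and 4 reads in the cKO mice.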

Other observations

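Some other members of the superfamily were carried by 1 control mouse. *Tnfsf11* (RANKL) had 102 normalized counts in control mouse 1 and 1.69 in control mouse 2, and 0 and 1.35 in the cKO mice. *Cd40*, a receptor of B cells and macrophages, had 81.1 and 9.32 in the control libraries and 10.3 and 1.35 in the cKO mice, so control mouse 2 was below cKO mouse 1. *Tnfrsf13c*, the BAFF receptor of B cells, had 120.0 and 7.62 against 3.09 and 4.06. By limma none of the 3 passed the threshold (adjusted p = 0.168, 0.149 and 0.117), nor by edgeR (0.0785, 0.122 and 0.0644), while DESeq2 called *Tnfsf11* (0.00715) and *Tnfrsf13c* (0.00576) but not *Cd40* (0.0650). They were chosen after their values were seen. B and plasma cell markers summed to 9181 in control mouse 1 and 264 in control mouse 2, and the part of B cells in these values was not tested.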
